A study of Homo sapiens with 4 samples.

Results

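The 10 genes described here, PRPS1, PPAT, GART, PFAS, PAICS, ADSL, ATIC, IMPDH1, IMPDH2 and GMPS, encode the enzymes that build purine nucleotides from small precursors. They were taken by gene symbol from 20137 genes, all 10 were found under 1 gene ID each, and all 10 were among the 12136 genes tested. RNA was sequenced from MDA-MB-231, a human breast cancer line of the triple-negative, mesenchymal-like kind. AURKA KD cells (2 libraries, coded shA), with a knockdown of the mitotic kinase Aurora A, were set against control cells (2 libraries, coded shC), which the design text calls mock-transfected. Cells of both groups were kept in L-15 medium containing serum. The labels give neither the hairpin sequence, nor the time after knockdown, nor whether the cells were pools or clones.

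De novo purine synthesis assembles the purine ring stepwise on phosphoribosyl pyrophosphate (PRPP) until inosine monophosphate (IMP) is reached, and IMP then branches to AMP and GMP. Folate-bound carbon units enter along the way. Dividing cells draw on this route together with salvage of free bases, and the end products inhibit the first enzymes.

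The unit, which no header names, was taken to be FPKM (fragments scaled to transcript length and library size), and values were summed here over the transcripts of a gene. Depth was estimated only roughly, from the size of the steps between low values, at 17100000 to 27600000 fragments per library. This puts 940 to 29000 fragments behind each member in a library, a counting error of at most 3.3%. Only the 47 of 54 member transcripts with a length in the GENCODE 29 annotation were counted. Those left out include ENST00000378717 of IMPDH1 and ENST00000454266 of ADSL, so the fragments of these genes are understated. Mitochondrial transcripts took 16.0% to 19.0% of the summed FPKM, the most in AURKA KD replicate 1. The line's markers VIM (1701 to 2068 FPKM) and CD44 (212 to 233 FPKM) were high, as were AXL (227 to 318 FPKM) and EGFR (75.3 to 104.9 FPKM), with SPARC at 16.2 to 22.7 FPKM. Of the markers taken as low, ESR1, PGR and CDH1 were below 0.3 FPKM in all 4 libraries, but ERBB2 had 16.5 to 20.2 FPKM, EPCAM 2.49 to 3.30 FPKM and GATA3 2.07 to 2.36 FPKM. Of markers of other cell types, CD3E, HBB and ALB were listed at 0 and PTPRC was at 0.012 FPKM or less. AURKA, the target, had 22.3 and 23.7 FPKM in AURKA KD libraries and 124 and 99.1 FPKM in controls, a log2 difference of -2.22 (limma, adjusted p 0.0819 in the plain fit and 0.000696 in the run-adjusted fit). The run-adjusted fit holds a term for the replicate number, each with 1 library of each group. Row order, and the loci of some transcripts, are shared within a number and differ between numbers. From this each number was taken to be a quantification run, which no label names.

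IMPDH1 was the 1 member that passed the test, higher in AURKA KD cells and in the run-adjusted fit alone. The log2 differences of the other 9 stayed below 0.2 in size, as did those of 64.5% of all tested genes. The plain limma fit called 0 of the 10 members, against 0% of all tested genes. IMPDH1 alone had an unadjusted p under 0.05 there, against 6.37% of all tested genes. The run-adjusted fit called 1 member higher and 0 lower, against 3.44% of all tested genes called, 1.53% higher and 1.90% lower. The median log2 difference of the members was -0.08 (-0.06 in replicate 1 and -0.08 in replicate 2), and that of all tested genes was 0.01. With control replicate 2 left out the members' median was 0.090, and with AURKA KD replicate 1 left out it was 0.052. These fits held no run term and left the groups unequal in replicate number. The change of sign therefore cannot be told from the difference between runs. With 10 members, 1 call says nothing about the pathway as a whole.

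**Figure D1:**
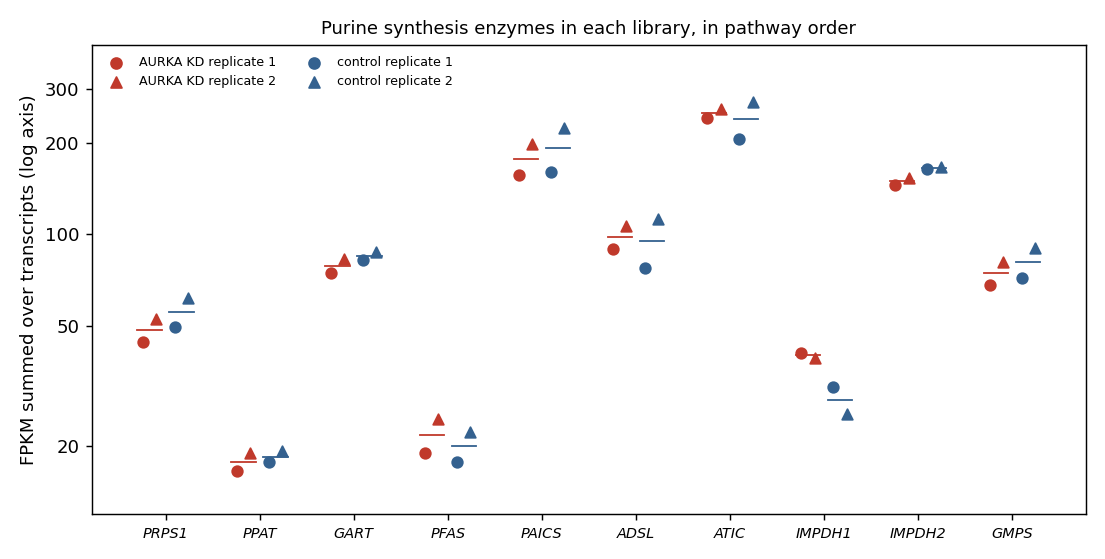
FPKM of each purine synthesis enzyme in each library, on a log axis, with AURKA KD libraries in red left of control libraries in blue, circles for replicate 1, triangles for replicate 2 and a line at each group's mean. Only IMPDH1 and IMPDH2 have groups that do not overlap, and the triangle lies above the circle in both groups for every gene except IMPDH1.

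PRPS1 makes PRPP, the sugar donor of the whole pathway. It had 44.3 and 52.6 FPKM in AURKA KD libraries and 49.3 and 61.5 FPKM in controls. The groups overlapped, and within each replicate number the AURKA KD library was the lower. The log2 difference of -0.19 did not pass (limma, adjusted p 0.906 in the plain and 0.234 in the run-adjusted fit). Its run-adjusted 95% interval ran from -0.38 to 0.004. PRPS1 (ENSG00000147224) lies on chromosome X at 106871737 to 106894256 in GRCh37.

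PPAT, the amidotransferase of the first committed step, was the lowest of the 10 genes in both groups. It had 16.6 and 19.1 FPKM in AURKA KD libraries and 17.8 and 19.3 FPKM in controls, and the groups overlapped. Its log2 difference of -0.05 did not pass (run-adjusted limma, adjusted p 0.784, 95% interval -0.28 to 0.18). PAICS, a bifunctional enzyme of later carboxylation and ligation steps, stands beside PPAT on chromosome 4 and is read from the other strand. It had 155.9 and 198 FPKM in AURKA KD libraries and 160.5 and 223.9 FPKM in controls. Again the groups overlapped, with the AURKA KD library lower within each number (log2 -0.11, run-adjusted limma, adjusted p 0.471). PAICS stood 9.39-fold and 10.4-fold above PPAT in AURKA KD libraries and 9.03-fold and 11.6-fold above it in controls. The log2 ratio of the pair differed by -0.05 between the groups (exact permutation p = 1, two-sided, n = 2 each, the smallest possible p being 0.333).

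RefSeq (GRCh38.p14) gives PAICS 3 starts, at 56410507, 56435752 and 56436260 on chromosome 4. The PPAT start at 56435615 points away from the second of them, 137 bases apart, and from the third, 645 bases apart. The stretch up to the nearer start is shown because it lies upstream of both genes, whose levels stood in the ratios above. The second sequence is the E-box (CACGTG, in capitals), a word bound by MYC-family and related factors, which begins 40 bases after the nearer PAICS start.
PPAT to PAICS, plus strand, chr4:56435616-56435751: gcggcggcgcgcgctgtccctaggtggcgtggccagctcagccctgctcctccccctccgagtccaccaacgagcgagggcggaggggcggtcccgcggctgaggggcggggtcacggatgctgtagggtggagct
PAICS E-box, plus strand, chr4:56435782-56435801: gtatttgctgCACGTGgaaa

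PAICS had 5 transcripts in the files, and 2 of them carried nearly all of its value. ENST00000512576, the highest, had 94.0 and 122.6 FPKM in AURKA KD libraries and 94.4 and 135.9 FPKM in controls. In GENCODE 29 it starts at 56436152 on chromosome 4 (GRCh38), downstream of the shared stretch, while ENST00000514888 starts at 56435741, inside it. ENST00000514888 had 57.0 and 66.8 FPKM in AURKA KD libraries and 60.9 and 81.3 FPKM in controls. The first transcript made up 62.3% and 64.8% of the pair in AURKA KD libraries and 60.8% and 62.6% in controls, so the groups overlapped. Transcript shares are estimates of the authors' program, and its way of dividing reads is not stated in the labels or headers.

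GART, a trifunctional enzyme that acts at 3 separate steps of the pathway, had 74.4 and 82.6 FPKM in AURKA KD libraries and 82.3 and 87.6 FPKM in controls. The groups overlapped narrowly, and the difference did not pass (log2 -0.11, run-adjusted limma, adjusted p 0.429, 95% interval -0.30 to 0.07). The locus of GART in the files, 34876238 to 35288284 on chromosome 21 (GRCh37), joins it with 7 other gene names, so it does not mark the ends of the gene. Its short transcript ENST00000361093, which ends early and encodes the synthetase domain alone, had 28.7 and 29.8 FPKM in AURKA KD libraries and 29.4 and 28.8 FPKM in controls. The full transcript ENST00000381815 had 35.8 and 40.3 FPKM in AURKA KD libraries and 41.7 and 44.3 FPKM in controls. The short form was 44.5% and 42.5% of the pair in AURKA KD libraries and 41.4% and 39.4% in controls, and these shares did not overlap. The full transcript was lower in both AURKA KD libraries than in either control, while the short one overlapped. Among the other GART transcripts, ENST00000426819 and ENST00000543717 were lower without overlap, and ENST00000430874 and ENST00000441403 were higher without overlap. The highest of these, ENST00000426819, had 6.94 and 10.02 FPKM in AURKA KD libraries and 10.36 and 12.79 FPKM in controls. No test was run on transcripts, and the share of all transcripts without overlap was not computed.

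GART also has a divergent neighbour, SON, an RNA-splicing factor, whose RefSeq start lies 146 bases from the nearest-facing GART start. The stretch between them holds 3 CCAAT boxes (CCAAT or, on the other strand, ATTGG, in capitals), words bound by the factor NF-Y. A further RefSeq start of GART, at 33542117, lies 921 bases from that of SON. The highest GART transcripts, ENST00000381815 and ENST00000361093, start near it in GENCODE, at 33542138 and 33542114. Nearer the stretch start ENST00000381831, listed at 0 in all libraries, ENST00000381839, at 0.0323 FPKM or less, and ENST00000426819, at 6.94 to 12.79 FPKM. ENST00000438059, at 0.274 FPKM or less, starts near these, at 33542820. ENST00000441403, at 0.589 to 1.555 FPKM, starts at 33542363. ENST00000430874, at 0 to 1.37 FPKM, starts at 33543491, beyond the stretch and the SON start at 33543038. The use of these starts was not tested. SON had 82.1 and 81.6 FPKM in AURKA KD libraries and 78.3 and 77.3 FPKM in controls (log2 0.07, run-adjusted limma, adjusted p 0.623).
GART to SON, minus strand, chr21:33542893-33543037: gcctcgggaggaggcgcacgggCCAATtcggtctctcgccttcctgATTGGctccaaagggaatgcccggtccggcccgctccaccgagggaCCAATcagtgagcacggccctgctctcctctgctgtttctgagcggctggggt

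PFAS, which adds a nitrogen from glutamine, was the second lowest of the genes. It had 19.0 and 24.5 FPKM in AURKA KD libraries and 17.8 and 22.4 FPKM in controls. The AURKA KD library was the higher within each number, yet the groups overlapped (log2 0.11, run-adjusted limma, adjusted p 0.53, 95% interval -0.11 to 0.33). Its longest transcript, ENST00000314666, had 14.4 and 17.02 FPKM in AURKA KD libraries and 14.6 and 17.4 FPKM in controls, and was the lower in AURKA KD cells within each number.

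ADSL and ATIC went opposite ways in the 2 replicate numbers. ADSL, a lyase that serves both this pathway and the branch to AMP, had 89.1 and 106.2 FPKM in AURKA KD libraries and 77.6 and 111.8 FPKM in controls. Its log2 difference was 0.20 in replicate 1 and -0.07 in replicate 2 (run-adjusted limma, adjusted p 0.741). ATIC, the bifunctional enzyme that closes the ring to give IMP, had the highest summed value of the 10 genes. It had 241.6 and 257.9 FPKM in AURKA KD libraries and 205.1 and 271.8 FPKM in controls. Its log2 difference was 0.24 in replicate 1 and -0.08 in replicate 2 (run-adjusted limma, adjusted p 0.676). In both genes the 2 controls lay further apart than the 2 AURKA KD libraries and enclosed them.

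Within these 2 genes, some transcripts separated the groups and others overlapped. Those named were picked after their values were seen. The share of all transcripts without overlap was not computed, and among all tested genes it was 35.9%. The canonical ADSL transcript ENST00000216194 had 75.2 and 75.5 FPKM in AURKA KD libraries and 53.7 and 65.6 FPKM in controls. ENST00000342312 went the other way without overlap, at 3.55 and 2.27 FPKM in AURKA KD libraries and 5.88 and 6.56 FPKM in controls. ENST00000454266 was also lower in AURKA KD cells within each number, with groups that overlapped. It had 10.3 and 28.4 FPKM in AURKA KD libraries and 17.99 and 39.65 FPKM in controls. ATIC transcript ENST00000426233 had 13.8 and 11.3 FPKM in AURKA KD libraries, against 0.00831 FPKM in control replicate 1 and a listing at 0 in control replicate 2. It made up 5.70% and 4.40% of the ATIC value in AURKA KD libraries. The full-length ATIC transcript ENST00000236959 had 84.5 and 99.2 FPKM in AURKA KD libraries and 80.9 and 96.6 FPKM in controls. ENST00000442048, a processed transcript of 442 bases, had 88.9 and 93.5 FPKM in AURKA KD libraries and 71.1 and 96.6 FPKM in controls. ENST00000446622, a processed transcript of 615 bases, had 37.95 and 33.0 FPKM in AURKA KD libraries and 35.5 and 54.95 FPKM in controls. The first place of ATIC among the members thus rests in part on short forms. A sum of FPKM over transcripts counts each per its own length. In every library the full-length transcript alone lay below the main IMPDH2 transcript, ENST00000326739, at 140 to 160.9 FPKM. Of the 50-base words of the canonical ADSL transcript, 75.7% also occur in AL022238.4 in GENCODE 29, a gene outside the members. For ATIC, GART, PFAS and IMPDH2 the figure was 0%, and for the other 5 it was 3.52% to 12.5%.

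ATIC carries 2 E-boxes in its RefSeq promoter window (250 bases before the start and 50 after it). They are shown because its FPKM, summed over transcripts, is the highest of the 10 members. The first begins 46 bases before the RefSeq start and the second 29 bases after it. The labels below go by that start. In GENCODE 29 the full-length transcript ENST00000236959 starts at 215311817, upstream of both boxes.
ATIC E-box before the start, plus strand, chr2:215312003-215312028: gccggcgggcCACGTGataagcccgg
ATIC E-box after the start, plus strand, chr2:215312078-215312103: cctacctgcgCACGTGgtgccgccgc
Windows were present for 8 of the 10 members, and not for ADSL and IMPDH2. These 8 had 12 windows in all, with 3 each for PAICS and GART. A member is counted if any of its windows holds the word, whereas the shares of all windows are per window. Searched on both strands, CACGTG stood in a window of PPAT, PAICS and ATIC, with PPAT and PAICS sharing a single box. It stands in 7.26% of 35116 RefSeq windows. CCAAT stood in windows of PRPS1 and GART, against 34.6% of all windows. TGACGTCA, the cAMP response element, stood in a window of 0 members, against 1.85%. The window of IMPDH1 held none of these 3 words. A match is a run of letters and was not tested as a binding site.

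IMPDH1 and IMPDH2 are the paralogous enzymes that commit IMP to GMP, the rate-limiting step of that branch. IMPDH1 had 40.8 and 39.0 FPKM in AURKA KD libraries and 31.3 and 25.7 FPKM in controls (39.9 ± 1.26 and 28.5 ± 3.97, SD, n = 2 each), 1.4-fold higher. Both AURKA KD libraries lay above both controls. The log2 difference of 0.48 had a standard error of 0.14 in the plain limma fit (adjusted p 0.624) and of 0.094 in the run-adjusted fit (adjusted p 0.0471, 95% interval 0.26 to 0.70). It was 0.37 in replicate 1 and 0.58 in replicate 2. On simulated data, with a chosen number and size of changes, the share of false calls in the run-adjusted fit exceeded its threshold of 0.05. The IMPDH1 call lies close to that threshold. In the run-adjusted fit the call was lost with a pseudocount of 0.1 (adjusted p 0.0627) and with no filter on low values (0.184), and the adjusted p over all 6 such alternatives ran from 0.00713 to 0.184. IMPDH1 (ENSG00000106348) lies on chromosome 7 at 128032331 to 128050306 in GRCh37.

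**Figure D2:**
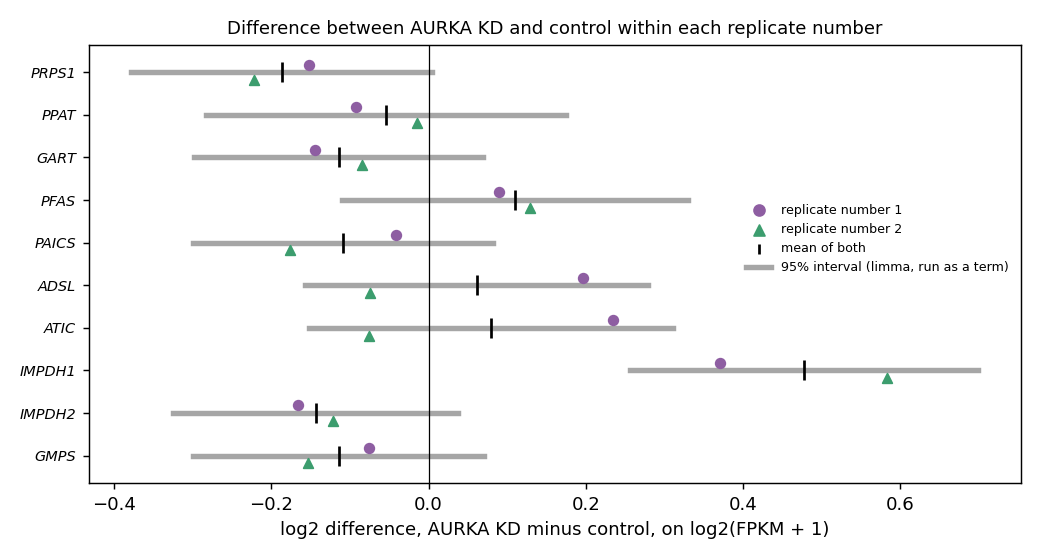
Log2 difference, AURKA KD minus control, of each enzyme within replicate number 1 (circles) and 2 (triangles), with the mean as a tick and the 95% interval of run-adjusted limma as a grey bar. The bar of IMPDH1 runs from 0.26 to 0.70, and the bars of the other 9 genes cross 0.

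IMPDH2, the more abundant paralog, had 145.5 and 152.7 FPKM in AURKA KD libraries and 163.3 and 166.2 FPKM in controls (149.1 ± 5.15 and 164.8 ± 2.08, SD, n = 2 each). Both AURKA KD libraries lay below both controls, but the difference did not pass (log2 -0.14, limma adjusted p 0.884 in the plain and 0.32 in the run-adjusted fit, where the 95% interval was -0.33 to 0.04). These paralogs were the 2 of 10 members whose groups did not overlap, against 35.9% of all tested genes, with 1 higher (background 19.4%) and 1 lower (background 16.6%). IMPDH1 took 21.9% and 20.3% of the summed IMPDH value in AURKA KD libraries and 16.1% and 13.4% in controls. The log2 ratio of IMPDH2 to IMPDH1 averaged 1.90 in AURKA KD libraries and 2.54 in controls (exact permutation p = 0.333, two-sided, n = 2 each, the smallest p that 2 against 2 allows). Their sum was 186.2 and 191.7 FPKM in AURKA KD libraries and 194.6 and 191.9 FPKM in controls. In bulk RNA a shift in all cells and a shift in the share of cells cannot be told apart.

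The higher IMPDH1 value lay in particular transcripts, which were picked after their values were seen. The share of all transcripts whose groups do not overlap was not computed. ENST00000378717 had 12.9 and 15.8 FPKM in AURKA KD libraries and 5.18 and 6.295 FPKM in controls, and it made up 31.7% and 40.6% of the gene's value in AURKA KD libraries and 16.6% and 24.5% in controls. Without it the gene had 27.9 and 23.2 FPKM in AURKA KD libraries and 26.1 and 19.4 FPKM in controls, so the groups then overlapped, with the AURKA KD library still the higher within each number. ENST00000348127, whose GENCODE 29 start equals the RefSeq start at 128409982 on chromosome 7 (GRCh38), had 12.4 and 9.23 FPKM in AURKA KD libraries and 11.5 and 10.8 FPKM in controls. Further into the gene, coding forms that start at 128405948 (ENST00000496200) and 128405942 (ENST00000470772) also separated the groups. ENST00000496200 had 1.98 and 3.99 FPKM in AURKA KD libraries and was listed at 0 in both controls, and ENST00000470772 had 4.76 and 3.76 FPKM in AURKA KD libraries and 2.88 and 1.20 FPKM in controls. ENST00000480861, which shares the start of the second of these, had 4.34 and 4.54 FPKM in AURKA KD libraries and 4.42 and 4.02 FPKM in controls. ENST00000378717 has no entry in GENCODE 29, so its start is not given here. Of the 50-base words of ENST00000348127, 12.1% occur in other genes, among them AL354989.2 and the pseudogene IMPDH1P5, and the part of such reads in the difference was not tested.

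**Figure D3:**
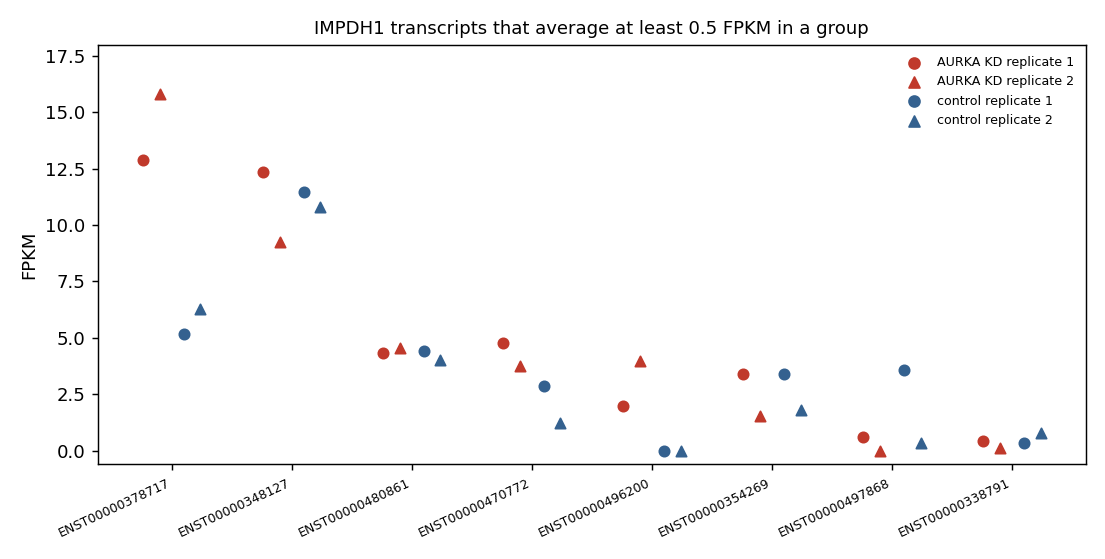
FPKM of the 8 IMPDH1 transcripts that average at least 0.5 FPKM in a group, with AURKA KD libraries in red left of control libraries in blue, circles for replicate 1 and triangles for replicate 2. ENST00000378717 stands at 12.9 and 15.8 FPKM in AURKA KD libraries and at 5.18 and 6.295 FPKM in controls, while ENST00000348127 and ENST00000480861 overlap between the groups.

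GMPS, which makes GMP from the product of IMPDH, had 67.9 and 81.0 FPKM in AURKA KD libraries and 71.6 and 90.2 FPKM in controls. The groups overlapped, with the AURKA KD library lower within each number (log2 -0.11, run-adjusted limma, adjusted p 0.432). Its coding transcript ENST00000295920 carried most of this, at 60.8 and 72.5 FPKM in AURKA KD libraries and 65.5 and 81.6 FPKM in controls.

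Taken by direction, 6 members were lower in the AURKA KD library of both replicate numbers (31.7% of all tested genes were), 2 were higher in both (35.3% of all tested genes) and 2 were mixed. The 8 members with the same sign in both stand beside 67.0% of all tested genes. The run-adjusted 95% intervals of the 9 members other than IMPDH1 reached down to 0.769-fold (PRPS1) and up to 1.26-fold (PFAS), on the scale of FPKM + 1. Leaving out 1 library, in fits without a run term, turned the sign of 6 members, and not that of PRPS1, GART, IMPDH1 or IMPDH2. It also left the groups unequal in replicate number, so these changes cannot be told from the difference between runs. Of the 6, PPAT, PAICS, GMPS and PFAS kept their sign within each replicate number, while ADSL and ATIC were mixed. With 1 library left out, PRPS1 ran from -0.34 to -0.03, GART from -0.19 to -0.04, IMPDH1 from 0.34 to 0.62 and IMPDH2 from -0.18 to -0.11. Without AURKA KD replicate 1 the log2 difference was 0.041 for PPAT, 0.063 for PAICS and 0.011 for GMPS, and without control replicate 2 it was 0.0022 for PPAT, 0.13 for PAICS and 0.049 for GMPS. Without AURKA KD replicate 2 it was -0.068 for PFAS and -0.064 for ADSL, and without control replicate 1 it was -0.048 for PFAS, -0.20 for ADSL and -0.12 for ATIC.

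In the files (GRCh37), PPAT lies on chromosome 4 at 57259528 to 57301781, PAICS on chromosome 4 at 57301907 to 57327534, ATIC on chromosome 2 at 216176540 to 216214487, IMPDH2 on chromosome 3 at 49061758 to 49066823 and GMPS on chromosome 3 at 155588325 to 155661815. PFAS, on chromosome 17 at 8131136 to 8173809, and ADSL, on chromosome 22 at 40742507 to 41032695, have loci joined with neighbouring genes, and the locus of PPAT also names AC068620.1.

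The order of the levels, which FPKM sets per length, was the same in both groups. It ran ATIC, PAICS, IMPDH2, ADSL, GART, GMPS, PRPS1, IMPDH1, PFAS and PPAT. In AURKA KD cells the means ran from 249.8 FPKM for ATIC to 17.8 FPKM for PPAT, and only GART with GMPS and PFAS with PPAT overlapped their neighbours. In controls the means ran from 238.5 FPKM for ATIC to 18.5 FPKM for PPAT. There ATIC overlapped PAICS, PAICS overlapped IMPDH2, ADSL overlapped GART, GART overlapped GMPS and PFAS overlapped PPAT. ATIC, PAICS and IMPDH2 stood above 95% of all tested genes in both groups, while PPAT stood above 54.9% in AURKA KD cells and 56.0% in controls. The sum of the 10 genes was 895 and 1014 FPKM in AURKA KD libraries and 876.6 and 1080 FPKM in controls, so the controls enclosed the AURKA KD libraries.

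The enzymes also differed by replicate number. In 9 of the 10 genes replicate 2 was above replicate 1 in AURKA KD cells and in control cells alike, which held for 30.8% of all tested genes. The median difference, replicate 2 minus replicate 1, was 0.22 in AURKA KD cells and 0.31 in controls on the log2 scale. For all tested genes it was -0.04 in AURKA KD cells and -0.07 in controls. PAICS differed by 0.34 in AURKA KD cells and 0.48 in controls, and PFAS by 0.35 in AURKA KD cells and 0.31 in controls. IMPDH2 differed least among the 9, by 0.07 in AURKA KD cells and 0.03 in controls. IMPDH1 alone was lower in replicate 2, by -0.06 in AURKA KD cells and -0.28 in controls. The number was taken to mark the quantification run, which no label names, and per the design text it marks a biological replicate. These cannot be told apart.

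**Figure D4:**
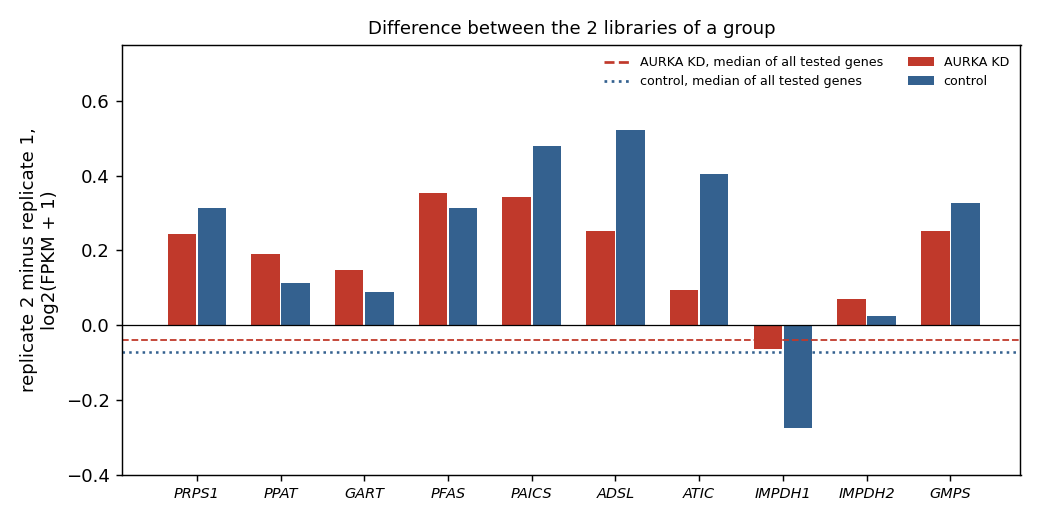
Replicate 2 minus replicate 1 for each enzyme on the log2(FPKM + 1) scale, with AURKA KD bars in red left of control bars in blue and the medians of all tested genes as a dashed line (AURKA KD) and a dotted line (control). Bars of 9 genes point up in both groups and those of IMPDH1 point down, while the medians of all tested genes lie at -0.04 in AURKA KD cells and -0.07 in controls.

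Genes around the pathway were described from 6 lists of pathway members. Of 57 listed genes 56 were in the files and 53 were tested. The plain limma fit called 0 of them, and the run-adjusted fit called 0 higher and 4 lower (AK1, PNP, HPRT1 and GMPR2), against 1.53% higher and 1.90% lower among all tested genes. The PRPP synthetase family had 3 tested members and 0 calls. Its largest difference was that of PRPS2, the other ubiquitous isozyme of PRPS1, at 28.1 and 37.3 FPKM in AURKA KD libraries and 35.7 and 52.9 FPKM in controls. The groups overlapped, and the difference missed the threshold (log2 -0.41, limma adjusted p 0.845 in the plain and 0.0573 in the run-adjusted fit).

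Of 14 tested folate enzymes, which supply the carbon units of the ring, 10 were above 0 and 4 below, with 0 calls and a median log2 difference of 0.13. Of 12 tested enzymes of the AMP branch and nucleotide kinases, AK1, an adenylate kinase, fell in the run-adjusted fit, to 46.6 and 49.6 FPKM in AURKA KD libraries, against 61.5 and 66.9 FPKM in controls (log2 -0.41, limma adjusted p 0.605 in the plain and 0.046 in the run-adjusted fit). Of 6 tested de novo pyrimidine enzymes 0 passed, and the largest difference was that of CTPS2, a CTP synthase, at 10.97 and 10.7 FPKM in AURKA KD libraries and 9.09 and 8.94 FPKM in controls (run-adjusted limma, adjusted p 0.259). Of 8 tested genes of deoxynucleotide supply 0 passed, with RRM2, a ribonucleotide reductase subunit, at 78.1 and 101 FPKM in AURKA KD libraries and 95.9 and 120.4 FPKM in controls (run-adjusted limma, adjusted p 0.105).

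Of 10 tested purine salvage genes the run-adjusted fit called 0 higher and 3 lower, beside the same 1.53% and 1.90% of all tested genes. HPRT1, which salvages hypoxanthine and guanine with PRPP, had 51.55 and 57.2 FPKM in AURKA KD libraries and 96.7 and 107.6 FPKM in controls (limma adjusted p 0.299 in the plain and 0.00447 in the run-adjusted fit). PNP, which releases those bases from nucleosides, had 57.0 and 59.7 FPKM in AURKA KD libraries and 124.9 and 126.7 FPKM in controls (limma adjusted p 0.227 in the plain and 0.00245 in the run-adjusted fit). GMPR2, which returns GMP to IMP and so runs against the IMPDH and GMPS steps, had 99.05 and 82.5 FPKM in AURKA KD libraries and 131.2 and 127 FPKM in controls (limma adjusted p 0.546 in the plain and 0.0326 in the run-adjusted fit). The locus of GMPR2 is joined with neighbouring genes, among them CHMP4A and NEDD8. A difference between the lists was not tested.

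**Figure D5:**
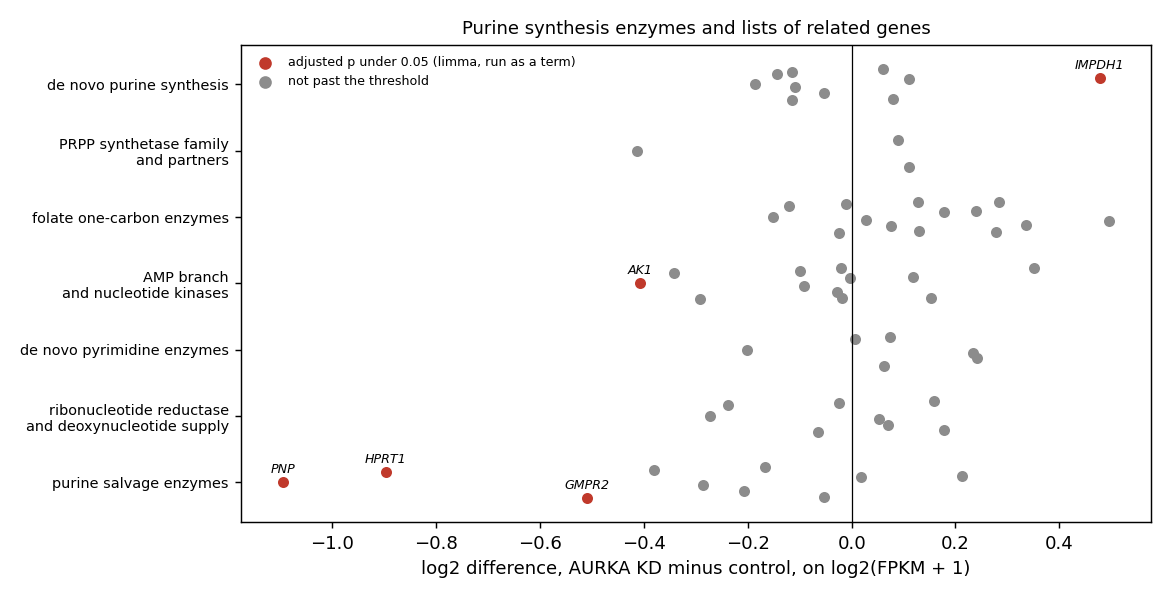
Log2 difference, AURKA KD minus control, of each tested gene in the purine synthesis pathway and in 6 related lists, with genes past the threshold in run-adjusted limma in red and named. IMPDH1 is the 1 named gene right of 0, and AK1, PNP, HPRT1 and GMPR2 are named left of it.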

How the data were processed

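Each library has its own deposited table of 81493 transcripts. No header names the unit, and the deposited values were taken to be FPKM from their range and totals. Tools and builds in the submitters' processing notes are hg38, HTSeq 0.8.0 and bcl2fastq 2.19, whereas a chromosome 4 locus ending at 191013719 shows GRCh37 coordinates, with starts counted from 0 and printed here from 1. The 81412 transcripts present in all 4 tables were summed by gene ID. Genes that reached 1 FPKM in 2 or more libraries were tested on log2(FPKM + 1), which understates the folds of low genes, with limma-trend (limma 3.58.1, R 4.3.3), two-sided, with Benjamini-Hochberg adjustment over all 12136 genes and a threshold of 0.05. A count test had been named for the case of counts and was not used.

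The 2 libraries of a number share row order and loci, and 1707 transcripts carry another locus in the other number. A number was therefore taken to mark a quantification run as well, which no label names. Deviations of same-numbered libraries from their group means correlated across genes at 0.645. A run-adjusted fit, blocked on that number, therefore accompanies the plain fit, the principal test. The run-adjusted fit has 1 residual degree of freedom. P-values measure the spread between these samples.

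Named genes were all members, AURKA and, per list, the genes called in either fit or else the gene with the largest difference. For the folate list that gene is not reported here. SON and the transcripts were added after their values were seen, and the share of all transcripts whose groups did not overlap was not computed. AK6 was not found in the files. Members and lists were chosen with earlier results of these data known. Promoter windows are RefSeq's (GRCh38.p14) and transcript starts GENCODE 29's, and neither was mixed with the files' coordinates. Both fits were tested on simulated data, with a number and size of changes that were chosen and are not known for the real data. There the share of false calls stayed below the threshold in the plain fit and exceeded it in the run-adjusted fit.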

Additional observations from a re-analysis of the deposited data

How the results depend on the processing

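Limits: 2 libraries a group, an unstated unit and an unknown time after knockdown bound every value. Counting error is small for these enzymes, so the spread between replicates sets the precision. With the replicate block, the run-adjusted fit, limma called 417 genes, 1 member and 4 related genes, and AURKA passed at -2.22. Without the block, 1 gene passed with a filter at 5 FPKM, 2 with median-of-ratios scaling (AURKA at -2.235) and 1 without mitochondrial genes, where the members' median was -0.047. With the block and a second change, combinations chosen after seeing the data, the calls over all genes were 287 (pseudocount 0.1), 424 (filter at 5 FPKM), 1183 (median-of-ratios), 1074 (upper-quartile) and 545 (without mitochondrial genes). Related genes called were 3, 4, 7, 7 and 4 in that order, and the members called were 0, 1, 1, 1 and 1. AURKA was at -2.27, -2.22, -2.235, -2.22 and -2.19, and the members' median without mitochondrial genes was again -0.047. With the block and no filter 0 genes passed. The cause was not tested. Leaving out 1 library at a time, without the block, gave 6 to 14 genes, 0 members, -2.38 to -2.06 for AURKA and -0.16 to 0.0898 for the members' median. Log2 differences then ran from -0.15 to 0.041 for PPAT, -0.068 to 0.29 for PFAS, -0.35 to 0.13 for PAICS, -0.20 to 0.32 for ADSL, -0.12 to 0.28 for ATIC, -0.28 to 0.049 for GMPS and 0.34 to 0.62 for IMPDH1. Of 170 member values over all settings 11 had another sign than reported, all of them with 1 library left out. Those fits leave the groups unequal in replicate number. Their changes of sign therefore cannot be told from the difference between runs. With the block no library can be left out, since no residual degree of freedom remains. Count-based tests were not run, since the files hold no counts.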
